A study of Mus musculus with 22 samples.

Results

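Hemoglobin and red cell transcripts were followed here through 5 genes, the alpha globins Hba-a1 and Hba-a2, the beta globins Hbb-bs and Hbb-bt, and Alas2, out of 37786 genes in the count table. They were taken by name, because globin and heme transcripts in a brain sample are a measure of the blood left in the tissue. Bulk RNA-seq had been run on the anterior cingulate cortex (ACC) of 22 mice in a study of the pathway from the basolateral amygdala (BLA) to the ACC. All mice were male C57BL/6J wildtypes that had received AAV5 carrying ChR2-EYFP, a light-gated cation channel fused to a yellow fluorescent protein, into the BLA. The channel was under the CaMKIIa promoter, which drives expression mainly in excitatory neurons. A unilateral optic fiber cannula had also been implanted into the ACC. The 10 stim mice had blue light delivered in 9 sessions and the 12 ctrl mice went through the same procedure with the light off, so the virus, the surgery and the implant were shared by both groups. Tissue was dissected fresh after cervical dislocation, and the methods name no perfusion of the vessels for these animals.

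Hemoglobin carries oxygen in red cells as a tetramer of alpha and beta chains, each holding a heme group. Its genes are switched on in erythroid precursors, where Alas2, the erythroid form of the first and rate-limiting enzyme of heme synthesis, is also made, while most other cells use Alas1 for the same step. Mature mammalian red cells have lost their nucleus, but the youngest of those in circulation, the reticulocytes, still carry globin mRNA. In a piece of brain the globin signal is therefore usually read as blood in the vessels, although globin mRNA has also been described in some neurons. In a bulk sample, fewer cells of a type and less RNA per cell cannot be told apart.

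The adult globin genes come in near-identical pairs, so the sequence decides how well their reads can be assigned. In the GENCODE M21 annotation of mm10 (GRCm38), Hba-a1 (ENSMUSG00000069919) lies at chr11:32283511-32284465 and Hba-a2 (ENSMUSG00000069917) at chr11:32296489-32297298, both on the plus strand. Hbb-bs (ENSMUSG00000052305, chr7:103826534-103828096) and Hbb-bt (ENSMUSG00000073940, chr7:103812524-103813996) lie on the minus strand. Alas2 (ENSMUSG00000025270) is at chrX:150547375-150570638 on the plus strand, inside the annotated span of Apex2 on the opposite strand. The coding sequences of the alpha pair, 426 bases without the stop codon, differed at 1 base, and those of the beta pair, 441 bases, also at 1 base. Counted from the first base of the start codon, with the base of the first-named gene first, these were C381T between Hba-a1 and Hba-a2 and C417T between Hbb-bs and Hbb-bt, both at the third base of a codon. The 50-base stretches around them, the length of 1 read, are shown because they hold the only coding difference between the copies, marked by the capital. The stretches lie at chr11:32284319-32284368 (Hba-a1), chr11:32297136-32297185 (Hba-a2), chr7:103826668-103826717 (Hbb-bs) and chr7:103812659-103812708 (Hbb-bt).
Hba-a1: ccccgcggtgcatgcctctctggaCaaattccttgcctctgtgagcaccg
Hba-a2: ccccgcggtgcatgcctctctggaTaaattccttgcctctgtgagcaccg
Hbb-bs: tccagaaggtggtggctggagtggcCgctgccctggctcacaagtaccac
Hbb-bt: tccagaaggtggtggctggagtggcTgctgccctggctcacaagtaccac

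Of all 50-base windows in the main transcript of each gene, 32.5% in Hba-a1 and 13.1% in Hba-a2 occurred in no other annotated gene on either strand. All 439 shared windows of one alpha gene belonged to the other. The beta genes had 34.2% (Hbb-bs) and 41.7% (Hbb-bt) unique windows, and their 381 shared windows were each other's. Only uniquely aligned reads had been counted, so a globin count rests on the unique part of its transcript and understates the full transcript by an unknown amount. Alas2 had 86.2% unique windows, and those it shared were with Apex2, the antisense neighbour, and Mir3620, a microRNA gene. Whether strand was used in the counting is not given in the sources used here, so reads of Alas2 and Apex2 may not be separable where their exons overlap. Apex2, a DNA repair nuclease, averaged 8.49 CPM, the count scaled to the library's size after TMM normalisation, close to Alas2 itself at 8.19.

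The stretches before the RefSeq start sites are shown for 1 gene of each kind because the genes below moved together, with letters of common promoter and erythroid motifs in capitals (GRCm38.p6). Exons of the genes in GENCODE were left out of the stretches shown but not of the motif search. Both strands of the 250 bases before each start were searched. The letters of the CCAAT box, of the erythroid CACCC element and of the TATAA box were sought, and for GATA factors either AGATAA or, as the other form, TGATAA. The stretch of Hba-a2 is chr11:32296369-32296488, plus strand. That of Hbb-bs is chr7:103827929-103828011, minus strand, and that of Alas2 is chrX:150547255-150547374, plus strand.
Hba-a2: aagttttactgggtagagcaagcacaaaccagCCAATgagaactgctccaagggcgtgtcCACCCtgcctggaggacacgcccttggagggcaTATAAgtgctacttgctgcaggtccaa
Hbb-bs: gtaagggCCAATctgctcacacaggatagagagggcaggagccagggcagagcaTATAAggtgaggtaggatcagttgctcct
Alas2: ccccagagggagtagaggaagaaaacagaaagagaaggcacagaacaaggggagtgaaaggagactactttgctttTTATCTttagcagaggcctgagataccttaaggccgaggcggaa

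All 5 promoters held CACCC and TATAA, against 52.0% and 22.8% of the 32851 promoters in the table. Some matches lay in bases that GENCODE places in exons of the gene, among them the CACCC of Alas2. CCAAT was present in 4 of 5 (33.9% of all promoters; not in Alas2) and a GATA form in 4 of 5 (16.6% of all; not in Hbb-bt). The nearest TATAA of the globins ended 23 to 26 bases before the start, whereas in Alas2 it ended 203 bases before and overlapped a second match on the other strand. The capitals in Alas2 are AGATAA read on the opposite strand. Aligned with an offset of 3 bases and no gaps, the alpha promoters were identical over 247 bases. The beta promoters matched at 51.0% of 249 bases.

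Globin counts made up a small share of every library. The 4 globin genes together took between 0.00606% (stim 7) and 0.0552% (ctrl 3) of a library's counts, with a median of 0.0142%. Library totals ran from 23090483 to 43668462 counts. Neuron markers were high, as in cortex, with the synaptic fusion protein Snap25 at a mean of 4626 CPM. All 5 genes passed the minimum of 10 counts in at least 10 mice, as did 17524 genes in all, and the lowest count of any of the 5 in any mouse was 103 (Alas2). Counting error was accordingly small, from 1.95% (Hbb-bs) to 6.86% (Alas2) at the median count.

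Hbb-bs, the main adult beta chain gene by count, gave the most reads of the 5. Its CPM ran from 44.6 through a median of 85.5 to 342 in the 12 ctrl mice and from 38.6 through 93.9 to 216 in the 10 stim mice. Ctrl 3 and ctrl 6 lay above every stim mouse and stim 7 below every ctrl mouse, and the other mice of the groups overlapped. Hbb-bt, the second beta gene, ran from 9.42 through 19.4 to 77.2 CPM in ctrl and from 7.52 through 19.8 to 42.7 CPM in stim mice. The same mice were at the extremes.

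The alpha globin genes gave counts of a like size to Hbb-bt. Hba-a1 ran from 10.4 through 21.7 to 69.9 CPM in ctrl and from 9.98 through 16.9 to 47.1 CPM in stim mice. Hba-a2 ran from 7.94 through 16.7 to 58.5 CPM in ctrl and from 7.65 through 13.1 to 36.3 CPM in stim mice. Again ctrl 3 was highest and stim 7 lowest. Alas2 was the lowest of the 5, from 4.02 through 6.85 to 22.6 CPM in ctrl and from 4.22 through 7.25 to 14.0 CPM in stim mice. Its highest mouse was also ctrl 3, while its lowest was ctrl 7.

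**Figure D1:**
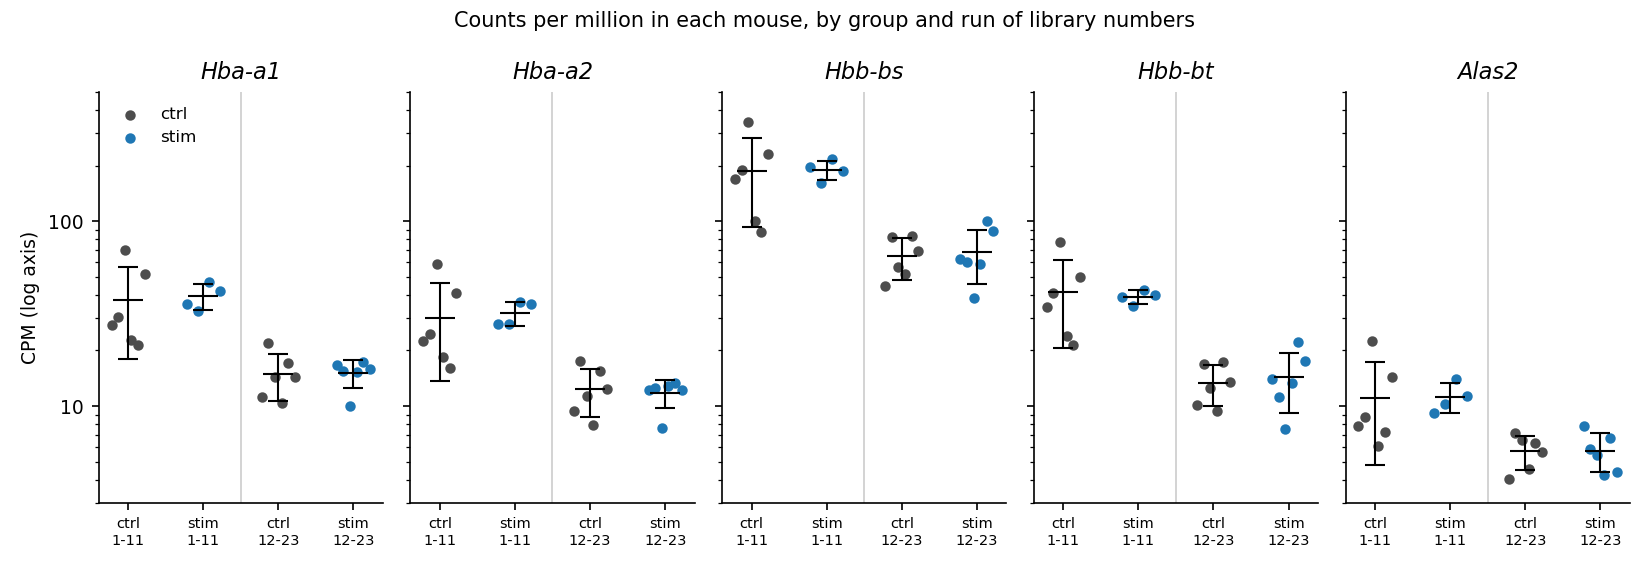
CPM (log axis) of each transcript in every mouse; points are mice, grey for ctrl and blue for stim, split by the run of library numbers (1 to 11, 12 to 23), and black bars give the mean ± 1 SD. Ctrl and stim mice overlap within each run. Globin levels of libraries 1 to 11 lie above those of 12 to 23 apart from a small overlap. For Alas2 the runs overlap more, between 6.06 and 7.82 CPM.

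Levels can be set side by side only per length, and the order then depended on the length used. Per kilobase of merged exons, Hbb-bs was highest at a mean level of 158 ± 103 CPM per kilobase (SD, n = 22), above Hbb-bt at 36.8 ± 24.4 in 22 of 22 mice. Hba-a1 (31.4 ± 19.1) was below Hbb-bt in 18 of 22 mice, and Hba-a2 (30.9 ± 19.1) below Hba-a1 in 15 of 22. The order of these 3 neighbours thus did not hold in every mouse. Alas2, at 3.41 ± 1.79 CPM per kilobase, was lowest in 22 of 22 mice. Per kilobase of unique windows instead, Hba-a2 (mean 312) moved above Hba-a1 (121) in 22 of 22 mice and above Hbb-bt (94.7), because little of Hba-a2 is unique, and Hbb-bs (614) and Alas2 (4.78) kept the ends of the order.

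Ratios within a library, which do not depend on its depth or scaling, were far steadier than the levels. The Hba-a1 count was 1.25 ± 0.0626 times the Hba-a2 count (SD, n = 22), a coefficient of variation (CV, SD over mean) of 5.02%, and the Hbb-bs count 4.75 ± 0.366 times the Hbb-bt count (CV 7.72%). Alpha counts were 0.327 ± 0.05005 of beta counts (CV 15.3%), a ratio of uniquely assigned reads and not of chains. The CPM of the single genes had CVs of 52.5% to 66.3%. The copies of a pair therefore kept nearly fixed proportions while their level varied from mouse to mouse by 7.00-fold (Hba-a1) to 10.3-fold (Hbb-bt) between the highest and lowest mouse.

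The first question was whether stimulation of the pathway changed these transcripts. In edgeR's quasi-likelihood test over 17524 genes, none of the 5 differed between groups, with log2 fold changes (stim minus ctrl) of -0.07 for Hba-a1, -0.10 for Hba-a2, -0.11 for Hbb-bs, -0.18 for Hbb-bt and -0.08 for Alas2. Standard errors were 0.27 to 0.36 and unadjusted p 0.634 to 0.825, and the Benjamini-Hochberg adjusted p was 0.9998 for each. Of all genes, 3.61% had an unadjusted p under 0.05 (632 genes) and 0% passed after adjustment, against 3 genes in a DESeq2 Wald test, none of them among the 5. A permutation test of the mean log2 CPM (100000 resamples, two-sided) gave p of 0.806 to 0.963.

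These differences changed sign with the fit and lay between -0.09 and 0.10 within each run of library numbers. Library numbers in the labels fall into a first run, 1 to 11 without 7 (6 ctrl and 4 stim mice), and a second, 12 to 23 (6 and 6). With the run in the fit the log2 fold changes were 0.045, 0.0050, 0.052, 0.016 and 0.012 in the order above, with standard errors of 0.17 to 0.19. Leaving 2 standard errors on either side, the ratio of stim to ctrl lay between 0.8004 and 1.34 for Hbb-bs and between 0.782 and 1.30 for Alas2. Within the first run the log2 fold changes were 0.10 for Hba-a1, 0.10 for Hba-a2, 0.037 for Hbb-bs, -0.07 for Hbb-bt and 0.027 for Alas2, and within the second -0.02, -0.09, 0.046, 0.07 and -0.02. The difference between the runs in the effect of stimulation, tested as an interaction, had unadjusted p of 0.634 to 0.996.

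Leaving out ctrl 3 turned all 5 differences positive, the largest being Hba-a1 at 0.17, and leaving out ctrl 6 turned 4 of them, with adjusted p of 0.996 or more for every mouse left out. The methods name 2 batches of animals and RNA integrity as covariates, but the labels do not give either by mouse.

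**Figure D2:**
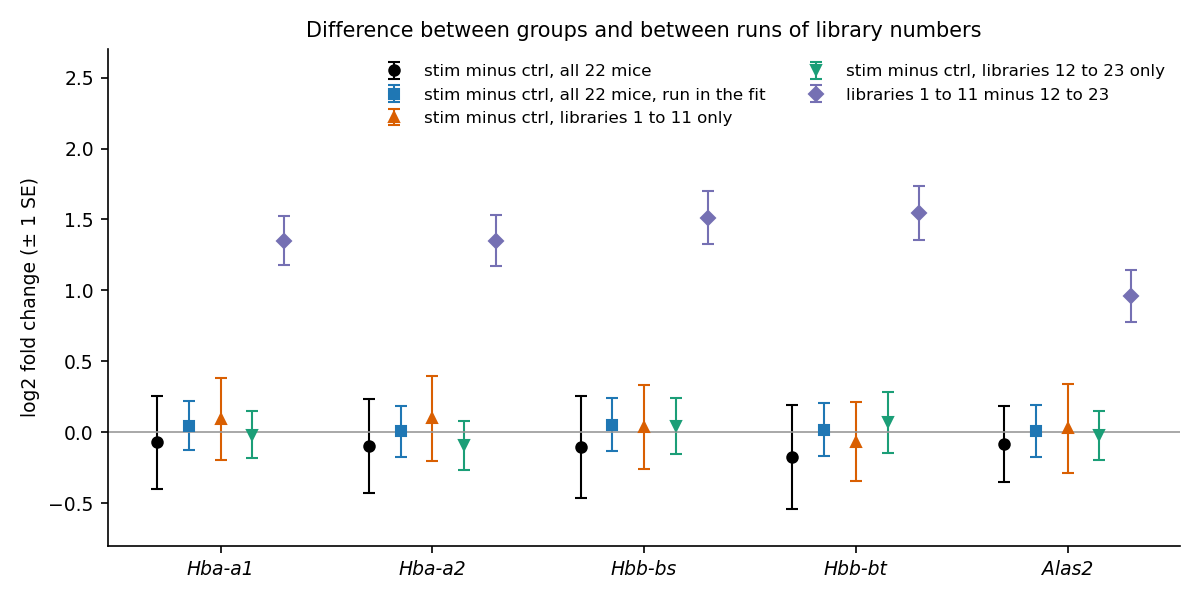
Log2 fold changes ± 1 SE of each transcript between stim and ctrl mice in 4 fits (circles, squares and triangles) and between libraries 1 to 11 and 12 to 23 (diamonds). The group differences lie between -0.18 and 0.10 in each fit, while the differences between runs lie between 0.96 and 1.55.

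The larger contrast in these genes was between the runs. Hbb-bs ran from 87.3 through a median of 188 to 342 CPM in libraries 1 to 11 and from 38.6 through 61.4 to 99.8 CPM in libraries 12 to 23. Of the first run only ctrl 5, at 87.3 CPM, lay below the highest mouse of the second, stim 9 at 99.8 CPM. With group in the fit, log2 fold changes (first run minus second) were 1.51 ± 0.19 (SE) for Hbb-bs, 1.55 ± 0.19 for Hbb-bt, 1.35 ± 0.17 for Hba-a1, 1.35 ± 0.18 for Hba-a2 and 0.96 ± 0.18 for Alas2. All 5 were higher in the first run in edgeR's test, with adjusted p from 5.7e-08 (Hbb-bt) to 4.6e-05 (Alas2), where 34.3% of all genes tested were called in that direction. This comparison was added after the counts had been seen. By size of the difference, Hbb-bt stood at place 299 of 17524 and Alas2 at place 1121.

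The direction was the same among ctrl mice alone, with log2 fold changes of 0.96 (Alas2) to 1.63 (Hbb-bt), and among stim mice alone, with 0.96 (Alas2) to 1.48 (Hbb-bs), and all 5 stayed under an adjusted p of 0.05 in edgeR's test in each group, where 28.5% (ctrl) and 27.1% (stim) of all genes were called in that direction. Alas2 rose less than the globins: the first run had 37.6 ± 5.92 Alas2 counts per 1000 globin counts (SD, n = 10) and the second 55.7 ± 14.7 (n = 12; permutation p = 0.00111, two-sided, shuffled within groups, adjusted p = 0.00888 over 8 tests of ratios). Neither the Hba-a1 to Hba-a2 ratio (permutation p = 0.927), the Hbb-bs to Hbb-bt ratio (p = 0.243) nor the alpha to beta ratio (0.304 against 0.346, p = 0.05004, adjusted p = 0.200) passed the threshold between runs. None of the 4 ratios passed between stim and ctrl mice, with permutation p of 0.3001 to 0.759.

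Much else moved with the run. Mitochondrially encoded genes took 1.63% to 4.81% of counts in the first run and 0.982% to 1.90% in the second. The summed CPM of 10 neuron markers ran from 8770 to 10856 in the first run and from 11339 to 15147 in the second, without overlap. Their part in the globin difference was not tested. What separates the 2 runs (animals, dissection, extraction or library preparation) is not in the labels, so these cannot be told apart.

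**Figure D3:**
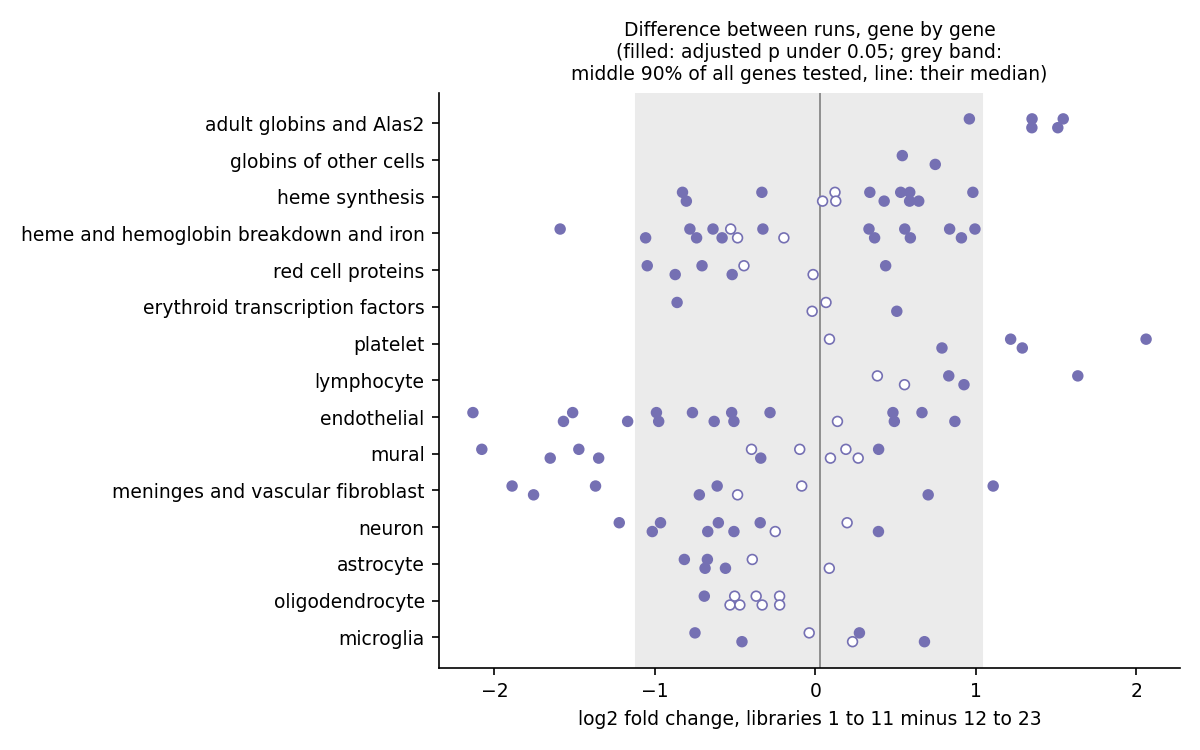
Log2 fold change between libraries 1 to 11 and 12 to 23 for each tested gene of 15 lists; filled points passed an adjusted p of 0.05, the grey band holds the middle 90% of all genes tested (-1.12 to 1.04) and the grey line is their median. The 4 globins lie above the band and Alas2, at 0.96, just inside it, while heme synthesis, iron, red cell protein and vascular genes spread to both sides.

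Heme synthesis beyond Alas2 was measured through 13 genes, all of which passed the count minimum. None had an unadjusted p under 0.05 between stim and ctrl mice, and their median log2 fold change was -0.0023, beside 0.0085 over all genes tested. With the run in the fit 3 of the 13 did, namely Alad (0.16, SE 0.06), the mitochondrial glycine carrier Slc25a38 (0.14, SE 0.06) and Slc25a37 (-0.21, SE 0.09), where 11.5% of all genes tested had such a p and 0 passed after adjustment, and the median was 0.058. The most abundant were Fech, which inserts iron into the porphyrin ring (log2 fold change -0.0023, SE 0.06), Alas1, the housekeeping form of Alas2 (0.07, SE 0.09), and Urod (-0.0081, SE 0.14), which acts midway in the pathway. Between runs 7 of the 13 were higher in the first and 3 lower, where 34.3% and 33.7% of all genes tested were called in these directions. The higher ones were led by Tmem14c (0.98), a mitochondrial porphyrin carrier, and Alad (0.64), which acts early in the pathway. The mitochondrial iron importer Slc25a37 (-0.83) and its partner Abcb10 (-0.80), which serve heme synthesis in erythroid cells, were lower in the first run, opposite to the globins.

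Of 18 genes for the breakdown of heme and hemoglobin and for iron handling, 17 were tested. Hmox1, the inducible heme oxygenase, had a log2 fold change of 0.28 (SE 0.13, unadjusted p = 0.0445) and Trf, transferrin, -0.61 (SE 0.25, unadjusted p = 0.0246). Neither passed after adjustment. Trf was at -0.0094 (SE 0.14) in libraries 1 to 11 and -1.11 (SE 0.36) in libraries 12 to 23, with an unadjusted interaction p of 0.0294 in edgeR's test (adjusted p = 0.597). Trf is also made by oligodendrocytes. All 8 oligodendrocyte markers measured were lower in stim mice at an unadjusted p under 0.05, where 2.61% of all genes were, and 0 of the 8 passed after adjustment. Their median difference (log2) was -0.76 over all mice, 0.044 in libraries 1 to 11, where 5 of the 8 were higher, and -1.33 in libraries 12 to 23. The summed marker level was highest in ctrl 9 (19754 CPM) and ctrl 11 (14532 CPM), against a median of 4335 CPM over all mice, and their Trf was 63.1 and 35.2 CPM. Without ctrl 9 the median of the markers was -0.44 with 4 of 8 at such a p, where 2.24% of all genes were. Trf was then at -0.32 (SE 0.18, unadjusted p = 0.0832 in edgeR's test). Within libraries 12 to 23 without ctrl 9, the median was -0.88 with 8 of 8 at such a p, where 6.19% of all genes were. Trf there was at -0.60 (SE 0.26, unadjusted p = 0.0349 in edgeR's test). The part of the markers in the Trf value was not tested. The most abundant were the ferritin heavy chain Fth1 (-0.11, SE 0.17), Lrp1, which takes up heme bound to hemopexin (0.06, SE 0.32), and Slc48a1, a heme transporter (-0.0039, SE 0.10). The haptoglobin gene Hp, at 8 counts or fewer, was not tested.

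Other red cell genes split into a few that were well detected and many that were near zero. Of 20 red cell protein genes in the table, 7 passed the count minimum, the most abundant being Tmcc2 (241 CPM), Bpgm (77.7 CPM), the enzyme that makes 2,3-bisphosphoglycerate, and Sptb, beta spectrin (47.8 CPM). None of the 7 had an unadjusted p under 0.05 between groups, and between runs 1 was higher in the first (Bpgm, 0.44) and 4 lower, beside the same 34.3% and 33.7% of all genes. Some defining membrane proteins were near zero and not tested: band 3 (Slc4a1) reached at most 20 counts in any mouse and Epb42 13. The erythroid transcription factors Klf1 (at most 19 counts), Nfe2 (14) and Gata1 (4) were also below the minimum, while Ldb1, Zfpm1 and Lmo2, also used outside erythroid cells, were the most abundant of that list at 74.0, 51.8 and 22.3 CPM. Of the other genes of the globin clusters, Hbq1a passed the minimum with a mean of 0.401 CPM, while the embryonic Hbb-y had 16 counts or fewer in any mouse and Hbb-bh1 had 1. Ahsp, Icam4, Hba-x, Hbb-bh0 and Hbb-bh2 were not analysed here.

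Globins of other cells shared the direction of the blood globins between runs, by a smaller amount, and had no called slope on Hbb-bs. Neuroglobin (Ngb) and cytoglobin (Cygb), found in neurons and in fibroblast-like cells, averaged 13.7 and 32.4 CPM. Their log2 fold changes between groups were 0.19 (SE 0.20) and 0.15 (SE 0.17), neither called. With the run in the fit they were 0.32 (SE 0.12, unadjusted p = 0.0160 and adjusted p = 0.359 in edgeR's test) and 0.23 (SE 0.12). Both were higher in the first run (0.75 and 0.54, both called, as were 34.3% of all genes). Their slopes on Hbb-bs over mice were -0.05 (SE 0.15) and -0.23 (SE 0.13), neither called.

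How closely the 5 transcripts moved together from mouse to mouse was examined within runs, since a correlation over all 22 mice also carries the difference between runs. Within libraries 1 to 11 (n = 10), Pearson's r of log2 CPM over the 6 pairs of globins was 0.930 to 0.995 and Spearman's rho 0.915 to 1.0. The permutation p was 7.9999e-05 or less for r (adjusted p 9.9999e-05 or less over 10 pairs) and 0.00066 or less for rho (adjusted p 0.000825 or less). Within libraries 12 to 23 (n = 12), r was 0.803 to 0.971 and rho 0.720 to 0.965, with permutation p of 0.0017 or less for r (adjusted p 0.00283 or less) and 0.0111 or less for rho (adjusted p 0.0185 or less). The globins thus kept the same order of mice to a large extent in both runs. The genes of a pair share sequence and all 5 share a library.

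Alas2 correlated with the globins more strongly in the first run than in the second, a difference that was not tested. With the 4 globins its r was 0.883 to 0.973 in libraries 1 to 11 and 0.389 to 0.589 in libraries 12 to 23, where permutation p was 0.0440 to 0.211 and none passed over the 10 pairs. Its rho in libraries 12 to 23 was 0.448 to 0.629, and that with Hba-a1, the highest, had an adjusted permutation p of 0.0462. Over all 22 mice r ranged from 0.872 to 0.996 over the 10 pairs and rho from 0.835 to 0.989, and without the 2 mice farthest from the median r was 0.819 to 0.994. The permutation p over all mice was 1e-05 for each pair, the smallest that 100000 resamples can give.

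**Figure D4:**
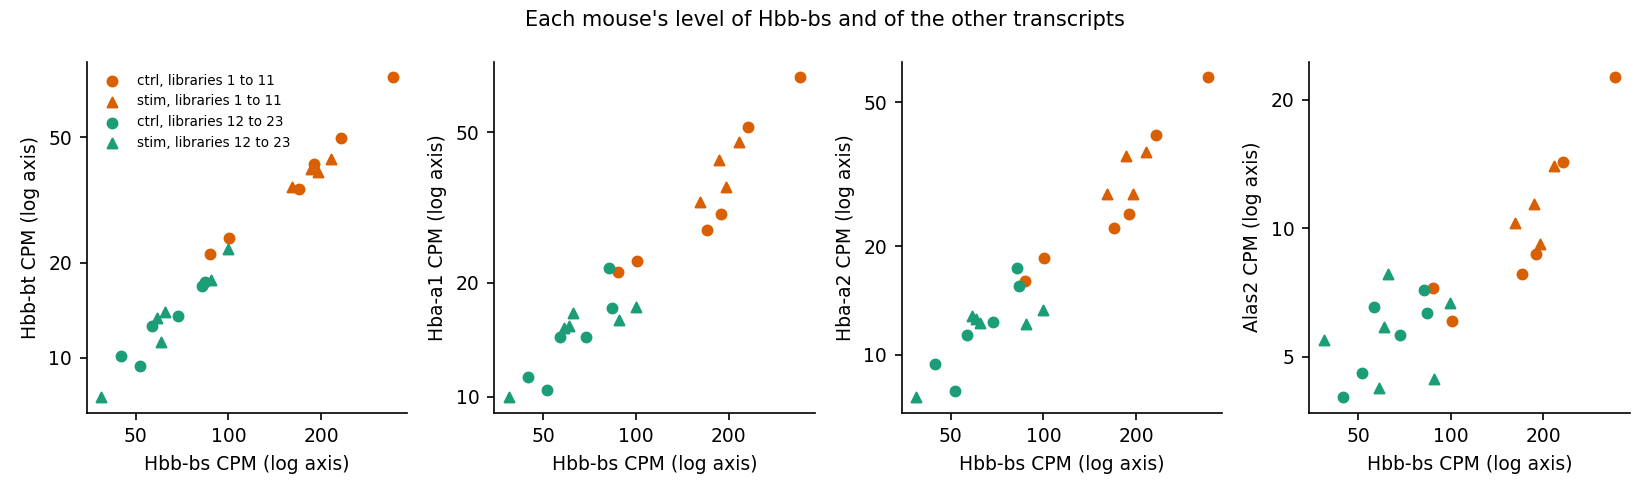
Each mouse's CPM of Hbb-bs (horizontal, log axis) against the CPM of Hbb-bt, Hba-a1, Hba-a2 and Alas2 (vertical, log axes); orange marks libraries 1 to 11, green 12 to 23, circles ctrl and triangles stim mice. The globins rise together along 1 line, most tightly Hbb-bt, and Alas2 scatters more in libraries 12 to 23.

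Spread between mice of 1 run was large for genes of this level. In the fit with group and run, the biological CV was 27.7% to 29.9% for the 5 genes, against a median of 12.0% to 17.7% among the genes whose mean CPM lay within 0.5 on the log2 scale. This placed them above 95.3% to 99.5% of those genes. The CV of Hbb-bs was 50.1% in the 6 ctrl mice of the first run, which hold ctrl 3 and ctrl 6, and 11.9% in its 4 stim mice. In the second run it was 25.2% in ctrl and 32.6% in stim mice.

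A last comparison asked which other genes followed Hbb-bs over mice, as the slope of each gene on log2 CPM of Hbb-bs with the run in the fit. Slopes of the other globins were 0.95 (SE 0.06) for Hbb-bt, 0.85 (SE 0.10) for Hba-a2 and 0.81 (SE 0.09) for Hba-a1, and Alas2 had 0.68 (SE 0.14, adjusted p = 0.0455). These 4 were among 14 genes called at an adjusted p under 0.05 in edgeR's test, 0.0799% of 17523, all rising with Hbb-bs. The globins were called whichever mouse was left out, and Alas2 in 8 of 22 such fits. Alone, libraries 1 to 11 gave 3 called genes, the other globins, and libraries 12 to 23 gave 1, Hbb-bt.

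The other 10 genes were chosen by their slope, and their roles are given as background only. Cst7 (slope 2.24, SE 0.34), Gpnmb (1.97, SE 0.35), Lgals3 (2.12, SE 0.40), Cd68 (0.53, SE 0.09) and Ctss (0.48, SE 0.10) are lysosomal or surface genes of activated microglia and macrophages. Mmp12 (4.80, SE 0.79) encodes a macrophage elastase, Cd52 (1.06, SE 0.20) a leukocyte surface antigen and Lcn2 (2.92, SE 0.56) a secreted protein of neutrophils and reactive glia. Endou (1.07, SE 0.21) and Gp2 (1.96, SE 0.38) completed the list. None of the 10 was called within either run alone. Beside them, all 6 microglia markers measured, such as Csf1r and P2ry12, had positive slopes with a median of 0.26, 5 of them at an unadjusted p under 0.05 and 0 after adjustment, where 9.51% of all genes rose at that p. The 6 astrocyte markers also had positive slopes with a median of 0.29, 5 at an unadjusted p under 0.05 and 0 after adjustment, with the intermediate filament gene Gfap at 0.83 (SE 0.22). All 8 oligodendrocyte markers had positive slopes as well (median 0.25, 0 at an unadjusted p under 0.05), and 8 of 10 neuron markers negative ones (median -0.06). The part of these cells in the slopes was not tested.

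The calls, more than the slopes, depended on which mice were in the fit. Mmp12 had 45.3 CPM in ctrl 3, 6.86 in ctrl 2, 6.72 in ctrl 8 and a median of 0.240 over all mice, and Gpnmb had 60.9 CPM in ctrl 3 against a median of 4.79. Without ctrl 3, 5 genes were called, 4 of them among the 14 (the 3 globins and Endou). The slopes without that mouse were lower for Mmp12 (3.86), Gpnmb (1.51), Lgals3 (1.76) and Cst7 (1.89), close to the value over all mice for Cd52 (1.003), Lcn2 (2.79) and Cd68 (0.55), and higher for Gp2 (2.08) and Ctss (0.55). Calls also fell to 6 without ctrl 4, to 7 without ctrl 5, stim 2 or ctrl 10 and to 8 without stim 10. They rose to 55 without ctrl 6, of which 9 had a negative slope.

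**Figure D5:**
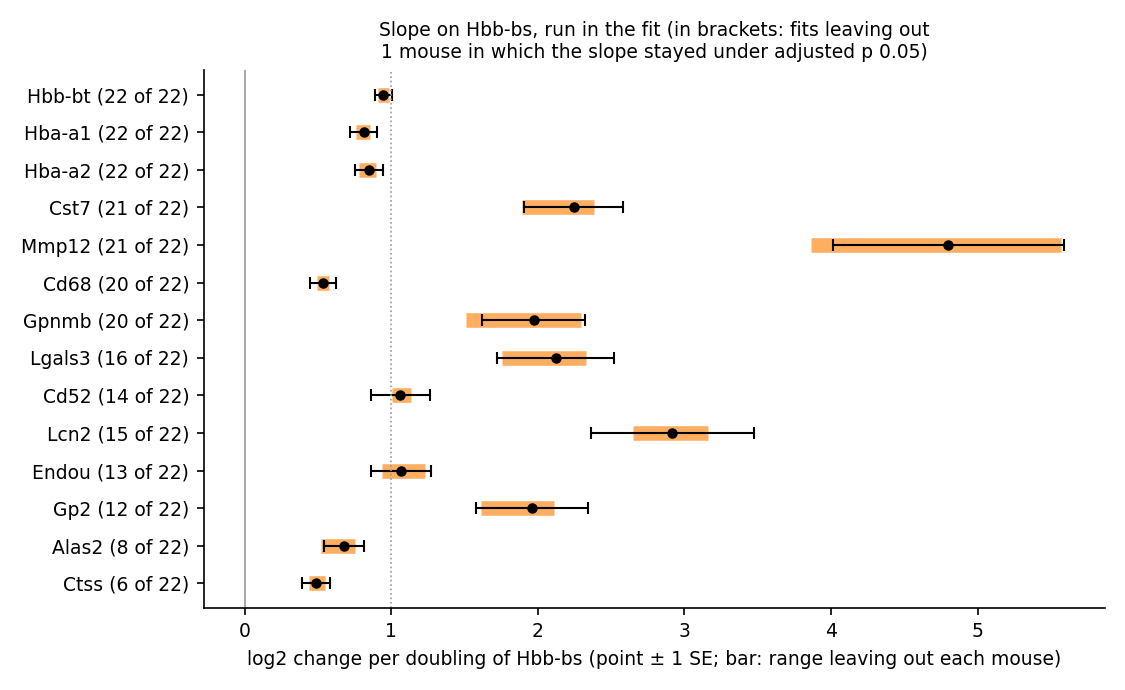
Slope of each of the 14 called genes on log2 CPM of Hbb-bs with the run in the fit (points ± 1 SE); the orange bars give the range when each mouse was left out in turn, and the number in brackets counts the 22 such fits in which the gene was called. The 3 globins lie between 0.81 and 0.95 and were called in 22 of 22, Ctss in 6.

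Blood-related and vascular lists were read against the same slope. All 5 tested platelet genes had positive slopes and 3 an unadjusted p under 0.05, beside 9.51% of all genes, with Ppbp at 1.003 (SE 0.27) and Pf4, platelet factor 4, at 0.39 (SE 0.19), but none passed after adjustment. All 5 platelet genes were also higher in the first run, 4 of them called (34.3% of all genes). The called differences were 2.06 for Ppbp, 1.29 for Pf4, 1.218 for Gp9 and 0.79 for Itga2b on the log2 scale. All 5 tested lymphocyte genes were higher in the first run, 3 of them called, beside 34.3% of all genes. The called ones were the immunoglobulin light chain gene Igkc (1.64) and the T cell receptor genes Trbc2 (0.93) and Trac (0.83). No lymphocyte gene had a slope that passed. Of 16 endothelial genes all had positive slopes, 5 at an unadjusted p under 0.05 (9.51% of all genes) and 0 after adjustment, with a median of 0.16. Of 11 mural genes 7 had positive slopes, with a median of 0.032. Of 9 genes of meninges and vascular fibroblasts 4 did, with a median of -0.065. In both of these lists 0 genes had an unadjusted p under 0.05. Between runs 11 of the 16 endothelial genes were lower in the first and 4 higher, beside 33.7% and 34.3% of all genes. Neutrophil markers other than Lcn2 stayed at or under 20 counts in any mouse, S100a8 and S100a9 included.

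By likeness of pattern, measured as Pearson's r of log2 CPM centred within runs over 22 mice, the genes nearest to Hbb-bs were Hbb-bt (0.974), Hba-a1 (0.892) and Hba-a2 (0.885). They were followed by Endou (0.831), Gp2 (0.816), Cd68 (0.801), Rhobtb1 (0.791), Cdk15 (0.790), Art3 (0.783) and Cst7 (0.778). Alas2 had an r of 0.713. The globins of the other chain were thus nearer than any gene that is not a globin.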

How the data were processed

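Bulk RNA-seq of ACC tissue from 12 ctrl and 10 stim mice was analysed from the deposited table. Per the labels and the methods, the authors made SMARTSeq v4 libraries from 5 ng of RNA, without molecular identifiers, used cutadapt 1.10 on the 50-base reads, STAR 2.5.3a for alignment to mm10 and HTSeq 0.6.1p1 to count those aligned uniquely, and deposited these raw counts. The deposited signal columns, which the authors had divided by DESeq2 size factors, and columns with the authors' own fold changes and p-values were not used. The 17524 genes reaching 10 counts in 10 or more mice were fitted in edgeR 4.0.16 (TMM, quasi-likelihood test, Benjamini-Hochberg) under R 4.3.3. Log2 CPM used a prior count of 2. Nothing in the labels says whether mice share litters, so p-values measure the spread between these mice.

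The 5 genes and all lists were chosen with earlier results of these data known. RNA integrity and batch by mouse were not used here, and the run of library numbers entered instead, chosen after seeing the data. Named genes were the 5 members, the 3 list genes of highest mean CPM, at most 6 list genes by unadjusted p under 0.05, and the called genes of the slope on Hbb-bs; genes singled out beyond these were named after their values were seen. DESeq2 1.42.0 and limma 3.58.1 served as alternatives, and the tests were tested on simulated data. Counting errors cover counting only. Some genes of the lists are not reported here by name.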

Additional observations from a re-analysis of the deposited data

Results flagged for a closer look

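Dixon's test was run in 45 searches, each of 1 level or ratio in a group of 4 to 10 mice. The searches share mice and genes, so they were not independent. In 2 of them a mouse lay far from the others, where chance gives about 1 in 20. Both were stim 7 among the 6 stim mice of libraries 12 to 23. Its Hba-a1 level was 9.98 CPM where the others had 15.2 to 17.3 CPM, and its Hba-a2 level was 7.65 CPM where the others had 12.2 to 13.3 CPM. The same mouse had the lowest Hbb-bs and Hbb-bt of all 22. The effect of stimulation did not pass a test of difference between the runs for any of the 5 genes.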

How the results depend on the processing

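The differences between runs of library numbers kept their direction and their call for all 5 genes under every alternative run. The differences between stim and ctrl mice passed no threshold under any alternative, and their sign was not stable. With the run as a covariate they were 0.045 (Hba-a1), 0.0050 (Hba-a2), 0.052 (Hbb-bs), 0.016 (Hbb-bt) and 0.012 (Alas2), and in a DESeq2 Wald test with the run 0.045, 0.0043, 0.053, 0.020 and 0.014. In libraries 1 to 11 only they were 0.095 for Hba-a1, 0.097 for Hba-a2, 0.037 for Hbb-bs and 0.027 for Alas2, and in libraries 12 to 23 only 0.046 for Hbb-bs and 0.069 for Hbb-bt. Leaving out 1 mouse gave -0.22 to 0.17 for Hba-a1, -0.24 to 0.15 for Hba-a2, -0.25 to 0.14 for Hbb-bs, -0.30 to 0.09 for Hbb-bt and -0.21 to 0.16 for Alas2. Without ctrl 3 the values were 0.17, 0.15, 0.14, 0.087 and 0.16, without ctrl 6 they were 0.06 (Hba-a1), 0.03 (Hba-a2), 0.0084 (Hbb-bs) and 0.012 (Alas2), and without stim 7 Hba-a1 was 0.019. The cause was not tested.

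Genes with an unadjusted p under 0.05 between groups, 632 in edgeR, numbered 1857 with limma voom, 2371 with no count minimum, 2015 with the run as a covariate, 974 in libraries 1 to 11, 2165 in libraries 12 to 23, 2184 in a DESeq2 Wald test with the run and 471 to 909 leaving out 1 mouse. After adjustment 0 were called, against 3 in a DESeq2 Wald test, 33 with the run in that test and 0 to 1 leaving out 1 mouse. Genes called between runs numbered 11663 to 11911 leaving out 1 mouse.

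With the replicate number as a block, 1291 genes had an unadjusted p under 0.05 and 0 passed after adjustment, and no call for the 5 genes changed. Same-numbered mice had a mean correlation of 0.308 (-0.367 to 0.635), over 0.1 in 8 of 10 pairs, 8 of which lie within 1 run, so the numbers were not taken as a pairing.

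Slopes on Hbb-bs lost their call in libraries 12 to 23 only for Hba-a1 (0.65), Hba-a2 (0.67) and Alas2 (0.28). That of Alas2 also lost it in libraries 1 to 11 only (0.87), with run and group in the fit (0.68, adjusted p = 0.0587 in edgeR), and without the 2 mice farthest from the median (0.46). Leaving out 1 mouse gave 0.76 to 0.85 for Hba-a1, 0.78 to 0.90 for Hba-a2, 0.91 to 0.98 for Hbb-bt and 0.52 to 0.75 for Alas2. Genes following Hbb-bs, 14 in all, numbered 40 with no count minimum, 10892 with no covariate, 3 and 1 within the runs, 570 without the 2 farthest mice and 5 to 55 leaving out 1 mouse. Slopes were negative for 8 of the 40, 5471 of the 10892, 163 of the 570 and 9 of the 55. Correlations of Alas2 within libraries 12 to 23 were 0.589 (Hba-a1), 0.502 (Hba-a2), 0.389 (Hbb-bs) and 0.390 (Hbb-bt). Red cell genes below the count minimum could not be compared at this depth.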
